A study of Homo sapiens with 6 samples.

Results

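The proteasome genes described here are the symbols of the deposited table made of PSM, a letter from A to G and a number. That rule uses names and no measured value, but the family was chosen with earlier results of these data known. The table held 46 such genes among 22258 symbols. They comprise 14 standard core subunits, 17 subunits of the regulatory particle, 3 immunoproteasome subunits, 7 assembly factors, 4 activators and 1 inhibitor. All 46 were abundant enough to be tested. A further 18 symbols starting with PSM, most of them pseudogenes or antisense transcripts, are not members.

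The samples are 6 total RNA libraries of SW480, an established human colon cancer cell line. They are 3 libraries labelled ALDH1B1 KD (knockdown replicates 4, 5 and 6) and 3 labelled SCR, whose genotype is given as WT (control replicates 4, 5 and 6). No sample had a treatment. The sources used here do not give how the knockdown was made, whether the lines are clones, or whether replicates are separate cultures, so p-values measure the spread between these samples only, which may be technical. ALDH1B1 encodes a mitochondrial aldehyde dehydrogenase.

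The proteasome is the barrel-shaped protease that degrades proteins tagged with ubiquitin. Its core particle stacks outer rings of alpha subunits on inner rings of beta subunits, and 3 of the beta subunits carry the active sites. The regulatory particle caps the barrel. Its base holds a ring of ATPases that unfold substrates, and its lid removes ubiquitin. In cells exposed to interferon, the active beta subunits can be replaced by immunoproteasome versions that favour peptides for antigen presentation. Transcription of many subunit genes is known to be raised by NFE2L1 (NRF1) when proteasome activity is short, through antioxidant response elements. As in any bulk sample, fewer cells of a type and less RNA per cell cannot be told apart in the values below.

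Levels are in RPM, reads scaled by the depth used by the authors, which was about 20360000 to 28590000 reads per library. ALDH1B1 had 19.99, 20.4 and 23.2 RPM in knockdown replicates 4, 5 and 6, against 34.1, 39.6 and 36.7 RPM in control replicates 4, 5 and 6. It fell to 57.6% of control, at -0.80 in log2 fold change (SE 0.0925, limma adjusted p = 2.41e-07). Of the markers of colon epithelium, KRT8, KRT18 and KRT19 were high in all libraries, whereas KRT20, LGALS4 and GPA33 averaged under 0.2 RPM in both groups. Over the 10 of 13 such markers that the table lists, sums were 5830 to 6143 RPM in the knockdown and 5433 to 5689 RPM in the control; CDH1, EPCAM and VIL1 rose, CDX2 fell, and the part of this in the results was not tested. Leukocyte markers, from cells rich in immunoproteasome, summed to 2.14 to 2.70 RPM in the knockdown and 2.48 to 3.91 RPM in the control over the 6 of 10 markers that the table lists. The only one abundant enough to be tested, CD68, fell to 0.311 ± 0.106 RPM in the knockdown, against 1.17 ± 0.320 RPM in the control (SD, n = 3 each; limma adjusted p = 0.000654), and its part in the results was not tested. Fibroblast markers, of which 3 of 8 are listed, summed to 5.37 to 7.03 RPM in the knockdown and 4.18 to 5.74 RPM in the control, nearly all of it COL1A1. VWF, the only listed one of 5 endothelial markers, was at 0.497 to 0.688 RPM in the knockdown and 0.425 to 0.617 RPM in the control.

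A pair of promoters and a few short sites are shown first because they belong to the genes with the largest falls or to fallen genes that hold the antioxidant response motif. Sequences are from RefSeq on GRCh38.p14, read 5′ to 3′ on the strand of the gene, from 250 bases before to 50 bases after the annotated start. Capitals mark matches to the antioxidant response core TGACNNNGC or to CCAAT, on either strand. PSMC4, the gene with the largest fall, lies at chr19:39970915-39971214 on the plus strand, and its only match is downstream of the start.
PSMC4: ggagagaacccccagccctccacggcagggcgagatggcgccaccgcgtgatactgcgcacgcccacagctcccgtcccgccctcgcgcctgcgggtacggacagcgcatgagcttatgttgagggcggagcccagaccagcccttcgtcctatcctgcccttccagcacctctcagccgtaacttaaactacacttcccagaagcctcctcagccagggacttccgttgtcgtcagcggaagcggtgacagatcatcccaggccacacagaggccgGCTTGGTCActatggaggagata
PSMD2: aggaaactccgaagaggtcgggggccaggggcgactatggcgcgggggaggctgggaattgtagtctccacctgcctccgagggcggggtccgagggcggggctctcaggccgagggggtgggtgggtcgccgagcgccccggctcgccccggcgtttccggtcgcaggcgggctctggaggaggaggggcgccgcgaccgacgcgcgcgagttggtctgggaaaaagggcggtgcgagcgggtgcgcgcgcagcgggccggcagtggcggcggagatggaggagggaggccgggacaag
The PSMD2 window (chr3:184298991-184299290, plus strand, the first of 2 windows for that gene) holds neither motif.

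The other fallen genes with TGACNNNGC in a window are PSMB3, PSMD1, PSMD3 and PSMD5, printed with up to 10 bases on each side, at chr17:38752627-38752655 (plus), chr2:231056896-231056916 (plus), chr17:39980760-39980788 (plus) and chr9:120843038-120843066 (minus). PSMD3 has a further match, on the opposite strand, that is not shown.
PSMB3: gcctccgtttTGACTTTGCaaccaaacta
PSMD1: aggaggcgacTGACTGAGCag
PSMD3: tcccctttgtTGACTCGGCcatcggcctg
PSMD5: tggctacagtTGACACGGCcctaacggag
Windows were found for 40 members. TGACNNNGC was present for 15 of them (37.5%), against 4384 of 27305 symbols with a window (16.1%). Among members it was held by 5 of the 21 that fell and by 10 of the other 19. CCAAT was present for 19 of the 40 members (47.5%) and for 39.7% of all symbols, in 11 of the 21 that fell and 8 of the other 19. A match is a run of letters, not a shown binding site.

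Proteasome transcripts were lower in the knockdown, by a modest amount and across most of the complex. Of the 46 members 24 fell (52.2%), against 19.2% of the 15475 genes tested, and 1 rose, against 22.7% of genes tested (limma, adjusted p under 0.05). Among the 9811 tested genes whose mean level lay within the members' range of 8.16 to 317 RPM, 25% fell and 20.7% rose. The median log2 fold change was -0.22 over the members and 0 over all genes tested, and 38 of 46 members were below 0, against 50% of genes tested. Over the 9811 genes within the members' range the median was -0.05, and 5601 were below 0. The groups did not overlap for 34 members (51.1% of genes tested), 31 of them lower in the knockdown (24.6% of genes tested) and 3 higher. Within the members' range the groups did not overlap for 54.5% of the 9811 genes. All members together summed to 3791, 3542 and 3719 RPM in knockdown replicates 4, 5 and 6, and to 4388, 4519 and 4238 RPM in control replicates 4, 5 and 6. Every knockdown sum was below every control sum, with a knockdown mean at 84.1% of the control mean.

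**Figure D1:**
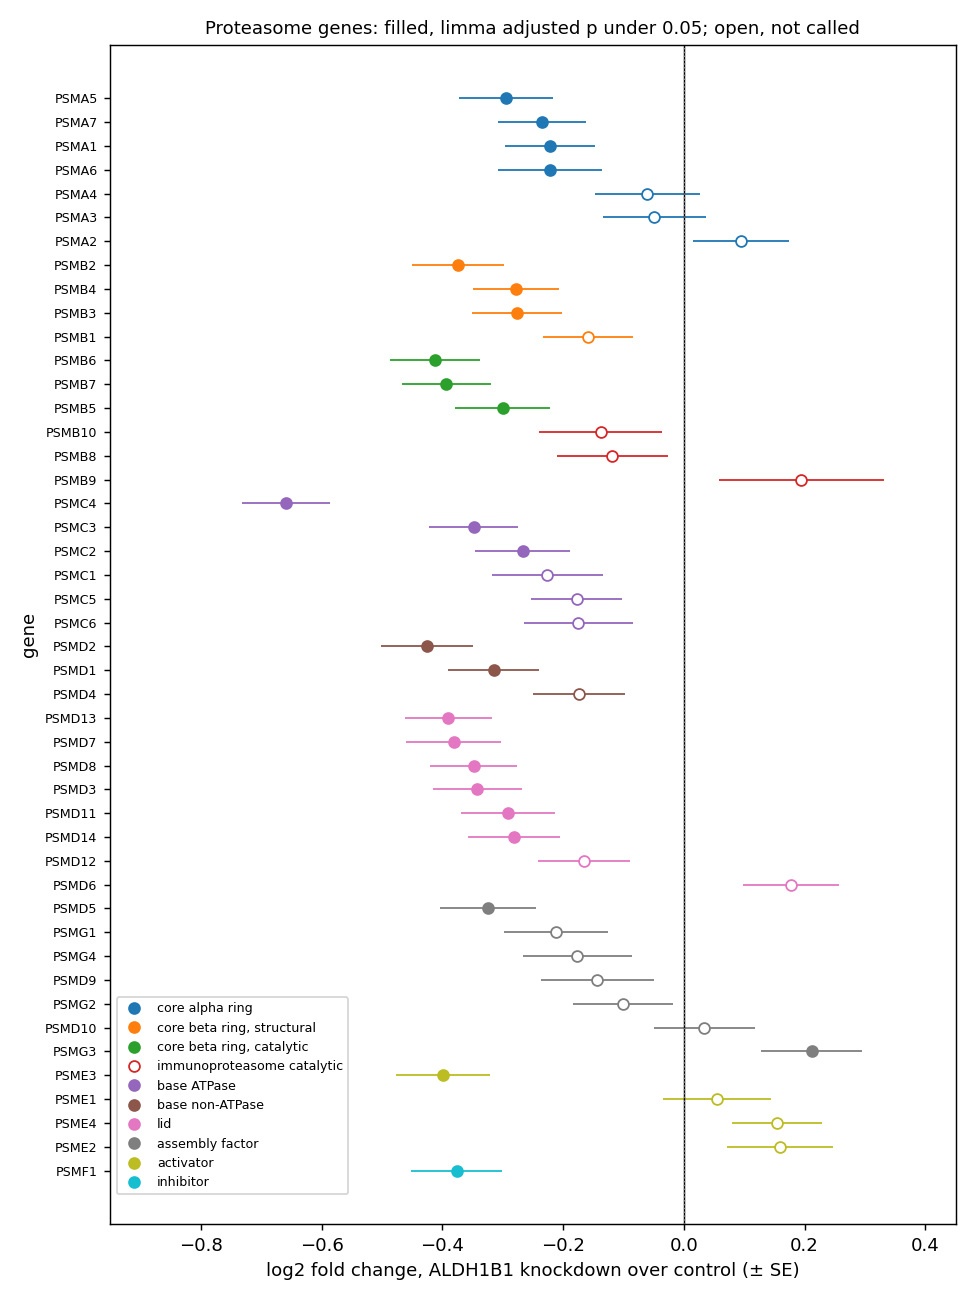
Log2 fold change of each of the 46 proteasome genes, knockdown over control (x axis, points with limma standard errors), one gene per line and coloured by role. Filled points passed the test: 24 lie left of 0 and 1, PSMG3, lies right of it.

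The standard subunits of the core, base and lid held most of the falls. Of 31 standard subunits 21 fell and 0 rose, with a median log2 fold change of -0.28. Of the 15 immunoproteasome subunits, assembly factors, activators and inhibitor 3 fell (20%, close to the 19.2% of all genes tested) and 1 rose, with a median of -0.12. The difference between these groups of genes was not tested.

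**Figure D2:**
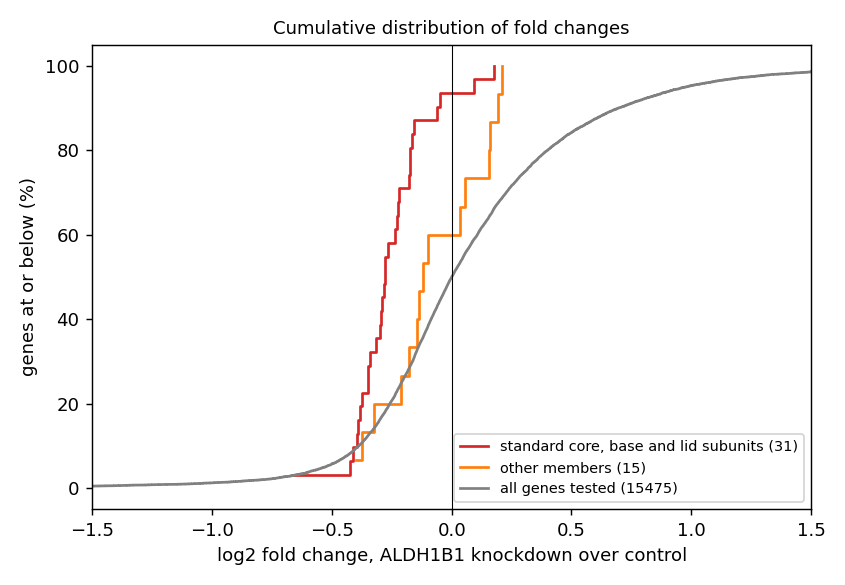
Cumulative share of genes (y axis, percent) at or below each log2 fold change (x axis), for 31 standard subunits, 15 other members and 15475 genes tested. The curve of the standard subunits lies to the left of that of all genes over most of its range.

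In the core particle, the active beta subunits fell together. PSMB6, which cuts after acidic residues, had 72.0, 69.4 and 73.0 RPM in knockdown replicates 4, 5 and 6, against 91.6, 97.7 and 95.9 RPM in control replicates 4, 5 and 6, at -0.41 in log2 fold change (SE 0.0744, adjusted p = 9.27e-05). PSMB7, the trypsin-like subunit, had 90.4, 87.9 and 95.6 RPM in the knockdown and 122.7, 120.98 and 115.98 RPM in the control, at -0.39 in log2 fold change (SE 0.0738, adjusted p = 0.000140). PSMB5, the chymotrypsin-like subunit and the main target of bortezomib, had 51.9, 49.0 and 52.6 RPM in the knockdown and 59.3, 65.0 and 64.7 RPM in the control, at -0.30 in log2 fold change (SE 0.0788, adjusted p = 0.00347). For each of these 3 genes all knockdown samples were below all control samples, as for 24.6% of all genes tested.

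The structural beta subunits followed the same direction. PSMB2 had 84.2, 78.8 and 88.3 RPM in the knockdown and 109.04, 112.6 and 103.8 RPM in the control, at -0.37 in log2 fold change (SE 0.0759, adjusted p = 0.000324). PSMB4 and PSMB3 both fell by 0.28 on the log2 scale, to 82.4% and 82.6% of control. PSMB1 had a log2 fold change of -0.16 and missed the threshold (adjusted p = 0.0924), though its groups did not overlap. Of the 7 beta subunits 6 therefore fell, against 19.2% of all genes tested.

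The alpha ring was less uniform, with 4 of 7 members that fell (19.2% of all genes tested) and a range of log2 fold changes of -0.29 to 0.09. PSMA5, PSMA7, PSMA1 and PSMA6 fell, with log2 fold changes of -0.29, -0.23, -0.22 and -0.22. The groups overlapped for PSMA6, and its call was lost under 9 of 15 alternative settings (adjusted p = 0.0411, and 0.00595 to 0.218 under the alternatives). PSMA2, PSMA3 and PSMA4 were not called, and knockdown replicate 4 stood above the other knockdown samples for each. PSMA3 had 91.3, 73.1 and 71.9 RPM in knockdown replicates 4, 5 and 6, against 80.7, 82.5 and 79.8 RPM in control replicates 4, 5 and 6. PSMA4 had 116.6, 96.7 and 90.8 RPM in the knockdown and 112.9, 105.4 and 97.5 RPM in the control. Over the alpha ring, the median log2 deviation from the control mean was -0.01, -0.28 and -0.21 in knockdown replicates 4, 5 and 6. Without knockdown replicate 4, PSMA3 and PSMA4 had log2 fold changes of -0.16 and -0.17 and still missed the threshold (adjusted p = 0.157 and 0.155). The cause of that library's higher alpha-ring values was not tested.

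**Figure D3:**
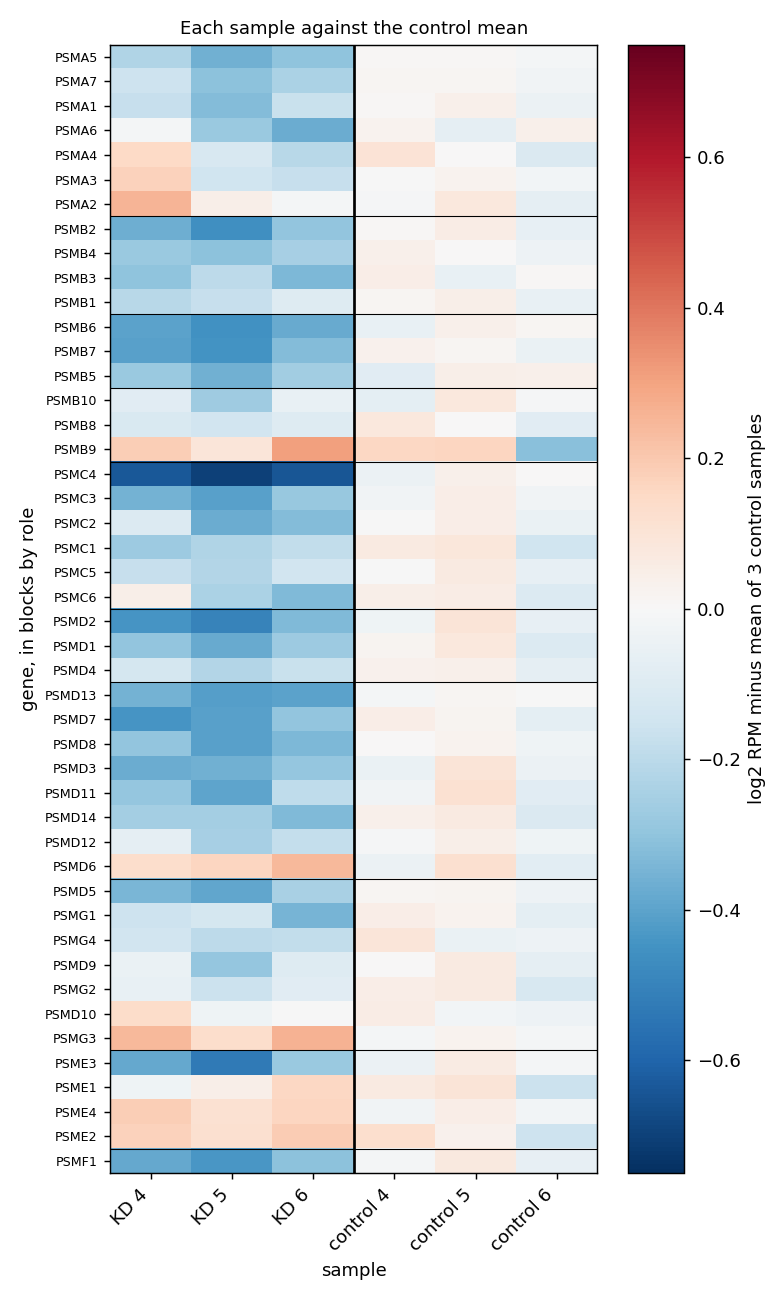
Colour gives log2 RPM of each gene (rows, in blocks by role from the alpha ring at the top to the inhibitor at the bottom) in each library (columns) minus the mean of the 3 control libraries. Most rows are blue in all 3 knockdown columns, while PSMA2, PSMA3 and PSMA4 are red in the column of knockdown replicate 4.

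In the base, which unfolds substrates and feeds them into the core, 5 of 9 subunits fell (19.2% of all genes tested) and all 9 were below 0. The largest fall of any member belonged to PSMC4 (RPT3, an ATPase; chromosome 19, 40476912 to 40487349 in the table's own coordinates). It had 81.5, 78.0 and 81.2 RPM in knockdown replicates 4, 5 and 6, against 123.1, 130.3 and 126.8 RPM in control replicates 4, 5 and 6, a fall to 63.3% of control and at -0.66 in log2 fold change (SE 0.0730, adjusted p = 1.16e-07). PSMC4 passed under all 15 alternatives, with log2 fold changes of -0.68 to -0.59. PSMC3 (RPT5) had 99.5, 95.8 and 104.2 RPM in the knockdown and 124.96, 131.5 and 124.7 RPM in the control, at -0.35 in log2 fold change (adjusted p = 0.000486). PSMC2 (RPT1) fell by 0.27 on the log2 scale (adjusted p = 0.00830). PSMC5 and PSMC6 had log2 fold changes of -0.18 and -0.17 and missed the threshold (adjusted p = 0.0620 and 0.125). PSMC6 passed without knockdown replicate 4, at -0.28 (adjusted p = 0.0205).

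Of the scaffold subunits of the base, PSMD2 (RPN1), which receives shuttle factors carrying ubiquitinated proteins, had 267, 256 and 288 RPM in the knockdown and 354, 388 and 348 RPM in the control, at -0.43 in log2 fold change (SE 0.0756, adjusted p = 7.56e-05). PSMD1 (RPN2) changed by -0.32 (adjusted p = 0.00169). The ubiquitin receptor PSMD4 (RPN10) had a log2 fold change of -0.17 without passing (adjusted p = 0.0693), with no overlap between groups.

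PSMC1 (RPT2) is uncertain because its reads may be split with a near-identical pseudogene. The table gives PSMC1P1 110.4, 106.8 and 109.6 RPM in the knockdown and 143.7, 149.4 and 133.8 RPM in the control, while PSMC1 itself had 22.6, 23.3 and 24.0 RPM in the knockdown and 28.5, 28.9 and 24.6 RPM in the control. The GENCODE 29 transcript of PSMC1P1 matches the PSMC1 messenger RNA at 99.9% of 1320 aligned bases, and PSMC1 received 15.5% to 17.96% of their summed reads. Alone, PSMC1 stood at -0.23 in log2 fold change (adjusted p = 0.0512). Summed with PSMC1P1, a setting added after the values were seen, it had 132.2 ± 1.87 RPM in the knockdown and 169.6 ± 10.2 RPM in the control (SD, n = 3 each), at -0.36 (adjusted p = 0.000365). Which locus the reads came from cannot be told from these values. PSMA6 and PSME2 also have pseudogenes in the table, PSMA6P1 and PSME2P2, at 97.4% and 95.9% identity, with mean levels of 6.20 and 6.97 RPM in the knockdown and 7.35 and 7.07 RPM in the control.

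In the lid, which cuts ubiquitin from substrates, 6 of 8 subunits fell (19.2% of all genes tested) and the groups did not overlap for any of the 8 (51.1% of all genes tested). PSMD13 (RPN9) had 105.5, 101.2 and 102.2 RPM in the knockdown and 133.7, 136.5 and 134.5 RPM in the control, at -0.39 in log2 fold change (SE 0.0718, adjusted p = 0.000113). PSMD7 (RPN8), the partner of the deubiquitinase, had 51.0, 52.2 and 56.3 RPM in the knockdown and 71.7, 70.2 and 65.8 RPM in the control, at -0.38 in log2 fold change (adjusted p = 0.000383). PSMD8 (RPN12) had 129.8, 120.2 and 126.3 RPM in the knockdown and 159.98, 162.5 and 156.3 RPM in the control, at -0.35 in log2 fold change (adjusted p = 0.000406). These 3 genes had tight replicates, with gaps between the groups wider than the spread within either.

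PSMD3 (RPN3) had 113.2, 114.1 and 120.1 RPM in the knockdown and 141.9, 156.7 and 142.1 RPM in the control, at -0.34 in log2 fold change (adjusted p = 0.000636). The deubiquitinase itself, PSMD14 (RPN11), and PSMD11 (RPN6) fell by 0.28 and 0.29 on the log2 scale, and the PSMD11 call was lost under 1 of 15 alternatives. PSMD12 (RPN5) stood at -0.17 in log2 fold change (adjusted p = 0.0845). The exception was PSMD6 (RPN7), with 72.9, 74.6 and 78.7 RPM in the knockdown and 64.6, 72.4 and 63.1 RPM in the control, a log2 fold change of 0.18 that missed the threshold (adjusted p = 0.0737). An antisense transcript that overlaps PSMD6 by 1601 bases, PSMD6-AS2, rose to 3.42 ± 0.667 RPM in the knockdown, against 1.86 ± 0.351 RPM in the control (SD, n = 3 each; limma adjusted p = 0.00158). Libraries were strand-specific per the labels, but the sources used here do not say whether counting used the strand. Of the 46 members 27 overlap another listed gene, 21 of them a gene on the opposite strand. Both counts include SNORA79, at a mean of 0.083 RPM, whose listed span covers PSMA3, PSMA6, PSMB5, PSMC6, PSME1 and PSME2 whole. It is the only listed partner of PSMB5 and PSMC6, and the only opposite-strand partner of PSMA6. Among genes that fell, PSMA1, PSMA6 and PSMD2 overlap COPB1, KIAA0391 and EIF2B5 on the same strand, by 6246, 38843 and 10347 bases. These partners had log2 fold changes of -0.22, -0.24 and -0.06. The part of partner reads in the member values was not tested.

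The immunoproteasome subunits were expressed at low levels and none was called. PSMB8 had 20.5, 20.1 and 20.8 RPM in knockdown replicates 4, 5 and 6, against 23.5, 22.2 and 20.96 RPM in control replicates 4, 5 and 6, at -0.12 in log2 fold change (adjusted p = 0.315). PSMB9 had 8.60, 8.06 and 9.36 RPM in the knockdown and 8.43, 8.44 and 6.08 RPM in the control, at 0.19 in log2 fold change (SE 0.136, adjusted p = 0.262). PSMB10 had 15.4, 13.6 and 15.8 RPM in the knockdown and 15.6, 17.3 and 16.3 RPM in the control, at -0.14 in log2 fold change (adjusted p = 0.290). The groups overlapped for PSMB9 and PSMB10, and control replicate 6 was the low one for PSMB9. Without that library PSMB9 stood at 0.037 in log2 fold change (adjusted p = 0.829). PSMB8 and PSMB9 overlap each other by 569 bases on opposite strands. PSMB9 also overlaps TAP1 by 8771 bases on the opposite strand and TAPSAR1 by 2361 bases on the same strand. Over all libraries TAP1 averaged 33.1 RPM and TAPSAR1 2.66 RPM, beside 8.16 RPM for PSMB9. TAP1 stood at 0.17 in log2 fold change (adjusted p = 0.125). The part of partner reads in the PSMB9 value was not tested.

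**Figure D4:**
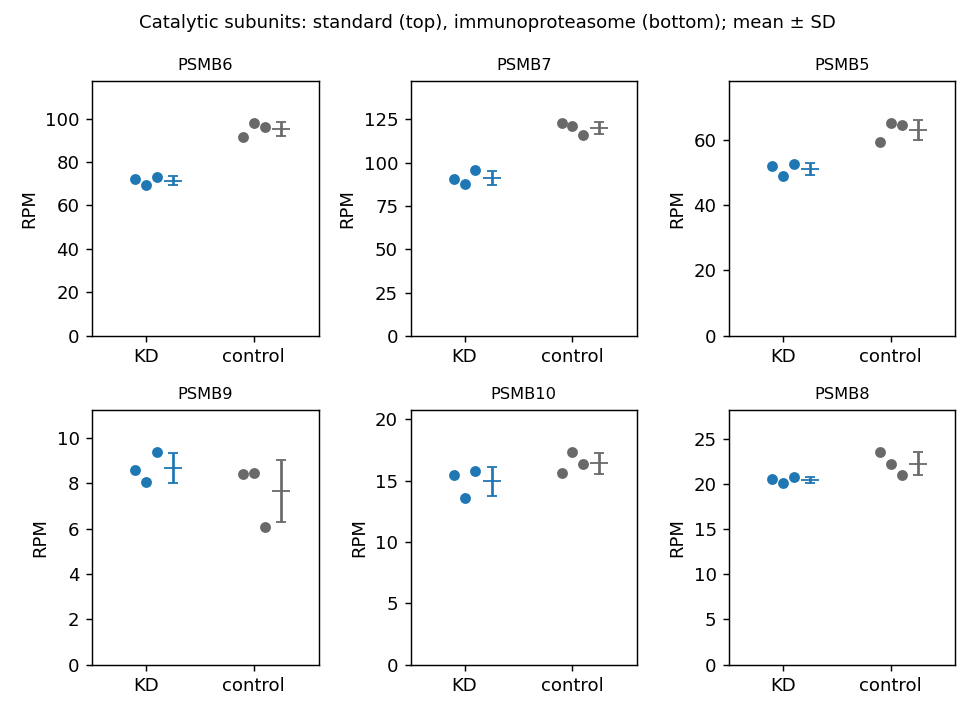
RPM (y axes, from 0) of the standard catalytic subunits PSMB6, PSMB7 and PSMB5 (top) and of their immunoproteasome counterparts PSMB9, PSMB10 and PSMB8 (bottom), 1 point per library with mean ± SD beside the points. The knockdown points lie below the control points for all 3 standard subunits, while the groups overlap for PSMB9 and PSMB10.

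Set against its standard counterpart per kilobase of transcript (the median length of GENCODE 29 basic coding transcripts), PSMB9 stood at 13.1%, 12.7% and 14.0% of PSMB6 in knockdown replicates 4, 5 and 6, against 10.1%, 9.45% and 6.93% in control replicates 4, 5 and 6. PSMB10 stood at 13.7%, 12.5% and 13.3% of PSMB7 in the knockdown and at 10.2%, 11.5% and 11.3% in the control. PSMB8 stood at 35.5%, 36.8% and 35.4% of PSMB5 in the knockdown and at 35.5%, 30.7% and 29.1% in the control. For the first 2 pairs all knockdown ratios lay above all control ratios, and for PSMB8 they overlapped. In these 2 pairs PSMB6 and PSMB7 fell, at -0.41 and -0.39 in log2 fold change. PSMB9 and PSMB10 were not called, at 0.19 and -0.14. No test was made of these ratios.

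Assembly factors, which dock subunits and are not part of the finished particle, mostly did not pass. Of 7 members 1 fell (14.3%) and 1 rose, beside 19.2% and 22.7% of all genes tested, so neither count stood above the background. PSMD5 (S5b), a chaperone of the base, had 43.5, 42.1 and 46.7 RPM in the knockdown and 55.8, 56.0 and 53.7 RPM in the control, at -0.32 in log2 fold change (adjusted p = 0.00195). The base chaperones PSMD9 and PSMD10 had log2 fold changes of -0.14 and 0.03 (adjusted p = 0.225 and 0.769). Of the alpha-ring chaperones, PSMG1, PSMG2 and PSMG4 had log2 fold changes of -0.21, -0.10 and -0.18 (adjusted p = 0.0513, 0.342 and 0.120). PSMG1 had 36.6, 37.0 and 32.0 RPM in the knockdown and 42.0, 41.4 and 38.6 RPM in the control, with no overlap.

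PSMG3, the partner of PSMG4, was the only member that rose, to 36.5, 33.8 and 37.0 RPM in knockdown replicates 4, 5 and 6, against 30.6, 31.5 and 30.5 RPM in control replicates 4, 5 and 6. As log2 fold change it stood at 0.21 (SE 0.0840, adjusted p = 0.0451), and the call was lost under 8 of 15 alternatives, which gave adjusted p = 0.00237 to 0.145. The antisense transcript PSMG3-AS1 overlaps it by 934 bases and rose to 12.5 ± 0.604 RPM, against 5.03 ± 0.893 RPM in the control (SD, n = 3 each), at 1.32 (adjusted p = 2.7e-08). The part of the antisense reads in the PSMG3 value was not tested.

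Of the activators, which bind the ends of the core in place of the regulatory particle, 1 of 4 fell (25%, near the 19.2% of all genes tested), and the 1 inhibitor fell. PSME3 (PA28gamma), the nuclear activator, had 112.1, 101.3 and 120.8 RPM in the knockdown and 141.96, 152.8 and 144.8 RPM in the control, at -0.40 in log2 fold change (SE 0.0779, adjusted p = 0.000217). PSMF1 (PI31), described as a proteasome inhibitor, had 82.8, 80.0 and 87.4 RPM in the knockdown and 107.1, 113.96 and 103.7 RPM in the control, at -0.38 in log2 fold change (adjusted p = 0.000287). Both groups of samples were separate for these 2 genes (51.1% of all genes tested). The interferon-induced activators PSME1 and PSME2 had log2 fold changes of 0.06 and 0.16 (adjusted p = 0.647 and 0.148), and PSME4 (PA200) had 0.15 (adjusted p = 0.0980), with no overlap between groups for PSME4.

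Levels per kilobase differed widely among subunits that are present in equal numbers in the particle. In the control, core subunits ranged from 24.5 RPM per kilobase for PSMA5 to 272.7 for PSMA7, and in the knockdown from 19.98 to 231.9 for the same genes. These values rest on an assumed transcript length and not on measured isoforms.

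For each member the median log2 fold change was taken over the nearest 20 tested genes on each side, or fewer at chromosome ends. In 7 members (PSMA2, PSMC5, PSMD6, PSMD12, PSME4, PSMG1 and PSMG3) that median was above 0.2, a limit chosen after the values were seen. None of these 7 fell and 1 rose, beside 19.2% and 22.7% of all genes tested, and all 7 were below their own neighbours' median. Around PSME4 26 of the 40 neighbours rose and 3 fell, with a median of 0.41, and around PSMG1 26 rose and 0 fell, with a median of 0.34. Among the other 39 members, whose neighbours' medians were -0.18 to 0.12, 24 fell (19.2% of all genes tested). Over all 46, 42 were below their neighbours' median, by a median of 0.23 on the log2 scale, and the 4 above it were PSMA3, PSMB9, PSMD10 and PSME2. The share of all genes tested that lie below their own neighbours' median was not computed, so this count has no background beside it. Across members, own and neighbours' fold changes had a Pearson correlation of 0.51 and a Spearman correlation of 0.41 (n = 46 genes, all from the same 6 libraries, some sharing neighbours).

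**Figure D5:**
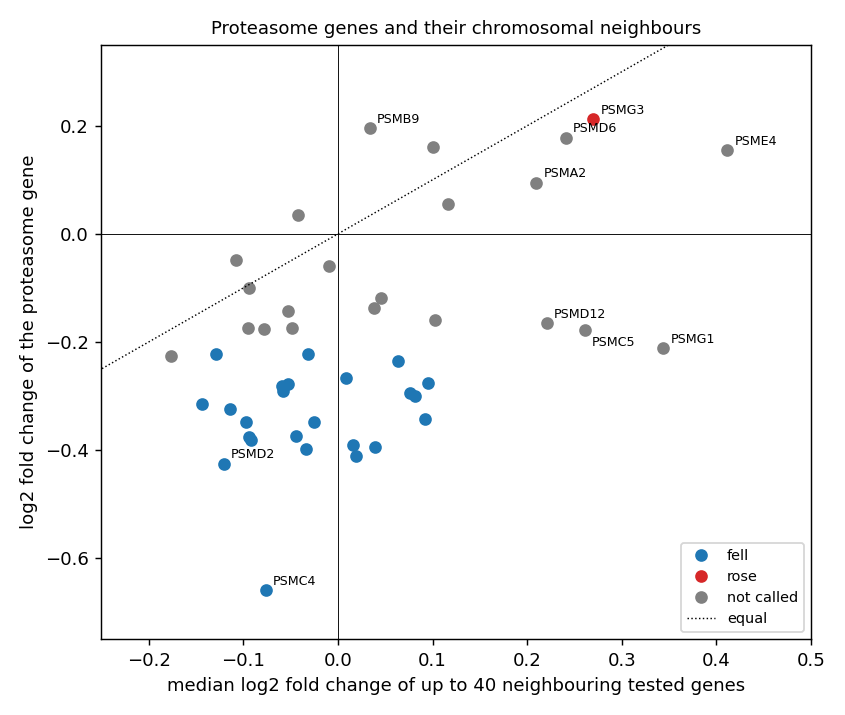
Log2 fold change of each proteasome gene (y axis) against the median of up to 40 tested neighbours on the same chromosome (x axis), coloured by call, with a dotted line of equality. The 24 genes that fell have neighbours' medians of -0.14 to 0.10 and all lie below the line.

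Other proteasome subunits and partners that the naming rule leaves out included 11 of 16 that fell and 1 that rose, beside 19.2% and 22.7% of all genes tested (median log2 fold change -0.23 over the list). ADRM1 (RPN13), a ubiquitin receptor of the base, fell to 123.7 ± 12.4 RPM in the knockdown, against 168 ± 11.5 RPM in the control (SD, n = 3 each), or by 0.44 on the log2 scale (adjusted p = 0.000108). The shuttle factors RAD23B and UBQLN1 fell by 0.48 and 0.35 on the log2 scale, and the ubiquitin ligase UBE3C by 0.34. POMP, the chaperone that builds the beta ring, fell by 0.26. The small lid subunit SEM1, listed as SHFM1, was the 1 that rose, by 0.23.

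Of VCP, the segregase that extracts proteins for degradation, and its cofactors, 8 of 12 fell and 0 rose, beside 19.2% and 22.7% of all genes tested. VCP itself fell by 0.28 on the log2 scale, NSFL1C by 0.45, FAF2 by 0.32 and PLAA by 0.32. Of the genes that encode ubiquitin, UBB fell by 0.19 and RPS27A rose by 0.31 on the log2 scale.

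The list around NFE2L1 and NFE2L2 held 4 of 12 that rose and 3 that fell (25%), beside 22.7% and 19.2% of all genes tested, which is near the background. NFE2L1, the activator of proteasome genes, averaged 169.99 ± 6.33 RPM in the knockdown and 179.3 ± 18.2 RPM in the control (SD, n = 3 each), at -0.07 (adjusted p = 0.484). NFE2L2 stood at -0.05 in log2 fold change (adjusted p = 0.603). Of genes that process NFE2L1, NGLY1, which removes its sugars, rose by 0.69, and DDI2, the protease that releases it, fell by 0.26. OGT and MAFK rose by 0.58 and 0.44, and HCFC1 fell by 0.35.

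Among 17 genes of antigen processing 5 fell and 2 rose (19.2% and 22.7% of all genes tested). ERAP2, a peptide trimming enzyme, rose by 0.65, while CANX and TAP2 fell by 0.33 and 0.30. For comparison with complexes of other kinds, 2 of 9 subunits of the COP9 signalosome, whose layout resembles the lid, fell (22.2%, near the background). These were COPS3 at -0.37 and COPS5 at -0.26. All 9 were below 0, against 50% of genes tested, with a median log2 fold change of -0.12. In the CCT chaperonin, which folds actin and tubulin, 5 of 8 subunits fell and 1 rose (19.2% and 22.7% of all genes tested), with TCP1 at -0.50. The median log2 fold change was -0.25 over the CCT subunits, beside -0.22 over the proteasome members.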

How the data were processed

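The authors deposited 1 table of log2 values per gene and library. The submitters' processing notes name Partek and Bowtie, without versions, and hg38; the sources used here do not name the counting method, gene models or filters. Undoing the log showed log2 of RPM plus an offset of 1e-04. The table's positions run past the end of GRCh38 annotation, so they are given as the table has them and their build is not named. Low values were multiples of 1 step (72.4% to 73.2% within 0.02 reads of a whole number), which gave the depths, but too few were whole for a count model. Symbols at several loci (1192) had identical values at each and were used once.

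Genes averaging 0.694 RPM or more (15475), that limit being 1e-06 of the median library's listed sum, were tested with limma 3.58.1 under R 4.3.3 (trended eBayes, 3 samples per group, no covariates, two-sided, Benjamini-Hochberg over all genes tested, threshold 0.05), after a check on simulated data. Rose and fell mean past that threshold. Members and lists were chosen with earlier results of these data known. The genes given in full are the 12 members with the largest falls, any that rose, the catalytic and immunoproteasome subunits and the 2 largest changes that missed the threshold; PSMA3, PSMA4, PSMD5, PSMD6 and pseudogene or antisense partners were added after their values were seen. Of each further list up to 4 called genes with the smallest adjusted p were named, besides NFE2L1 and NFE2L2, and some results are not reported here; POMP, SEM1 and DDI2 were named after their values were seen. Figures used matplotlib 3.10.9.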

Additional observations from a re-analysis of the deposited data

How the results depend on the processing

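Of the 24 members that fell, 19 passed under all 15 alternatives, and PSMA1, PSMA6, PSMA7, PSMC2 and PSMD11 lost the call under at least 1. The number that fell was 19 to 32 over the alternatives, lowest without a variance trend and highest with median of ratios scaling. Under these settings 14.6% and 26.3% of all genes tested fell, against 19.2% in the main test. Leaving out 1 library gave 20 to 30 that fell and 0 to 1 that rose, while 13.1% to 24.1% of all genes tested fell. The number that rose was 2 with median of ratios scaling, 5 with quantile normalization, 4 with nuclear gene totals, and 0 without a filter, without a variance trend and with the replicate block. With nuclear gene totals the members' median was -0.17, while the median of all genes tested was 0.05. The members' median minus that of all genes was -0.225 there and in the main test. It was nearest to 0 with quantile normalization, at -0.142 (medians of -0.185 and -0.0428), and farthest without knockdown replicate 4, at -0.272. The share of all calls that rose was 54.1%, against 61.3% with nuclear gene totals and, without control replicate 6, 44.98%.

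Among members that were not called, 8 passed as lower under 1 or more alternatives. PSMC1 and PSMG1 did so under 6 of 15 each and PSMC5 under 4. PSMD6 passed as higher under 4, PSME2 and PSME4 under 2 each and PSMA2 under 1. Some members that were not called crossed 0. With quantile normalization PSMA3 and PSMA4 had log2 fold changes of 0.0103 and 0.0177, and with nuclear gene totals PSMA3 had 0.00418. Leaving out 1 library gave -0.16 to 0.0126 for PSMA3 (above 0 without knockdown replicate 5 or 6), -0.17 to 0.0149 for PSMA4 (above 0 without knockdown replicate 6), -0.0174 to 0.0681 for PSMD10 (below 0 without knockdown replicate 4) and -0.0250 to 0.102 for PSME1 (below 0 without control replicate 6). The cause was not tested.

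Same-numbered libraries had correlations of deviations from the group means of -0.05, -0.06 and -0.12. Of 3 knockdown libraries 0 correlated best with its own number. With 3 libraries per group these values cannot decide whether same-numbered libraries share a day or culture. The numbers were therefore not used as pairs in the main test. With the replicate block 21 members fell, 2302 of all genes fell and 3177 rose.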
